A study of Mus musculus with 23 samples.

Results

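The genes described here encode the proteins of the cytosolic ribosome. They were chosen by name from the raw count table: protein-coding genes named Rpl or Rps with a number (and the suffixes of their paralogs), plus the stalk genes Rplp0, Rplp1 and Rplp2 and Rpsa, with at least 1 CPM (counts per 1e6 counts, the library's own total) in 3 libraries. Rpl3, Rpl3l and Rps27a were left out by the rule. Of 54446 genes in the table, 80 names matched and 77 passed the minimum, namely 30 of the small subunit, 44 of the large subunit and 3 of the stalk. Rpl10l had 0 counts in every library, and Rpl39l and Rpl36al stayed under the minimum. A second table, made from other libraries, lists 74 of the 77 and does not list Rpl13, Rpl24 and Rps10. All 77 passed the filter on low counts used for the tests.

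The samples are mouse skeletal muscle, and the labels name neither the muscle nor the age or strain. The first set holds 9 libraries in groups of 3: denervated muscle of PAX4 KO mice, denervated muscle of wild-type (WT) mice and innervated control muscle of WT mice. The second set holds 8 libraries, all of denervated muscle: 3 of NRF1PAL-PAX4 double KD mice, 3 of NRF1PAL KD mice and 2 of WT mice (called WT con). Every denervated muscle had been denervated for 10 days, so the second set has no innervated library. NRF1PAL is alpha-PAL, the product of Nrf1, a transcription factor best known as an activator of genes for mitochondrial proteins, and PAX4 is a transcription factor with a paired box. The labels say neither how the genes were knocked out or down nor in which cells, and the series is titled as a study of the transcriptional control of proteasome genes. RNA was whole-muscle total RNA, made into libraries with a SMARTER mRNA kit. In such bulk samples, fewer cells of a type and less RNA per cell cannot be told apart.

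A ribosome is built of ribosomal RNA and roughly equal numbers of each ribosomal protein, so the genes of the proteins are usually expressed together and at similar levels. Their mRNAs begin with a run of pyrimidines, the 5′ terminal oligopyrimidine (TOP) element, through which translation responds to the kinase mTORC1 and the La-related protein Larp1. The amount of ribosomes sets a limit on protein synthesis in muscle, and loss of the nerve leads to atrophy, in which protein breakdown exceeds synthesis. A few proteins have paralogs that can take their place or act outside the ribosome, such as Rpl22l1 for Rpl22, Rps27l for Rps27 and Rpl7l1, which works in ribosome assembly, beside Rpl7.

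Each library of the first set held between 21716216 and 42821396 counts, and each of the second between 23740769 and 30165765 reads. The targeted genes gave no check of the labels. In the first set no library had a count of Pax4 (0 in each of the 9, where the limit of 3 counts lies at 0.0701 to 0.138 CPM and covers counting error only), and the second table does not list it. Nrf1 had 449, 427 and 454 normalised counts in double KD, 499, 476 and 524 in NRF1 KD and 488 and 444 in WT con muscle. Against WT con its log2 fold change was 0.10 ± 0.12 (SE) in NRF1 KD muscle (limma, adjusted p = 0.618) and −0.07 ± 0.12 in double KD muscle (limma, adjusted p = 0.784), so the groups are called by their labels throughout. The 7 genes fixed as markers of denervation, such as the fetal acetylcholine receptor subunit Chrng, separated the denervated from the innervated libraries. Their summed level was 1300, 1287 and 1479 CPM in PAX4 KO denervated libraries 1 to 3, 1201, 2096 and 2141 CPM in WT denervated libraries and 34.5, 272 and 41.2 CPM in WT innervated libraries. WT innervated library 2 was thus highest of its group and WT denervated library 1 lowest of its own, and results on denervation are also given without these 2 libraries. Muscle fibre genes such as Acta1 and Ckm summed to 61353 to 82643 CPM in PAX4 KO denervated, 75730 to 92745 CPM in WT denervated and 106957 to 129578 CPM in WT innervated muscle, and none of the 13 was at 0 in any library.

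Promoters of 8 members are shown first, because they carry the sequence features that the results below are set against. Each stretch runs from 50 bases before the annotated start to 25 from it, on the strand of the gene, taken from RefSeq (GRCm38.p6), which gave a window for 59 of the 77 members. Capitals mark the pyrimidine run CTCTTTC at or just after the start in the first pair below, the TATA-like TATATAA and then CTCTTTC in Rps26, and the ETS family motif CCGGAAG in Rpl37. The alpha-PAL palindrome GCGCATGCGC is in capitals in Rpl37a and Rpl10a, and TATATAA, read on both strands, in Rpl22l1. Rpl7l1 holds none of these motifs in the stretch shown. Rpl28 and Rpl35 stand for members with CTCTTTC at the annotated start, and Rpl22l1 and Rpl7l1 for the members that did not follow the others.
Rpl28, chr7:4792915-4792989, plus strand: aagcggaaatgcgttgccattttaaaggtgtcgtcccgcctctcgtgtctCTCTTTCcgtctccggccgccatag
Rpl35, chr2:39005107-39005181, minus strand: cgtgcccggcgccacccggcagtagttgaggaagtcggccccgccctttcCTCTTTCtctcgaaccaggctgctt
Rps26, chr10:128626482-128626556, minus strand: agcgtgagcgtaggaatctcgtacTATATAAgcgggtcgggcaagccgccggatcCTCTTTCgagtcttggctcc
Rpl37, chr15:5116563-5116637, plus strand: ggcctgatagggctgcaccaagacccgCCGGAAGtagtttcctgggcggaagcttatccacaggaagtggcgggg
Rpl37a, chr1:72711210-72711284, plus strand: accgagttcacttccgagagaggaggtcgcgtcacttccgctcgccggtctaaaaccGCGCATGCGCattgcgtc
Rpl10a, chr17:28328515-28328589, plus strand: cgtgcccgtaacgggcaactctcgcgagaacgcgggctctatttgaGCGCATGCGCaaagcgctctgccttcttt
Rpl22l1, chr3:28805458-28805532, plus strand: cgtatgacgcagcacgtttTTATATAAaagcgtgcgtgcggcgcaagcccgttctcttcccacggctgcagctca
Rpl7l1, chr17:46782632-46782706, minus strand: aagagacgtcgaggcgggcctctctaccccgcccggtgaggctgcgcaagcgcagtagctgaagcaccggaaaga

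In the whole windows, from 250 bases before to 50 bases after the start and on either strand, CTCTTTC stood in 17 of the 59 members (28.8%), against 9.28% of the 27025 genes with a window and 8.96% of the 11040 protein-coding genes tested in the first set. CCGGAAG stood in 24 members (40.7%), against 9.93% of all genes and 18.4% of the tested protein-coding genes. AAGATGGC, the core of the YY1 motif, stood in 6 members (10.2%), against 3.19% and 4.77%. TATATAA stood in 4 members (6.78%), against 3.84% and 1.84%. The alpha-PAL palindrome stood in 2 members, Rpl10a and Rpl37a (3.39%), against 1.07% and 2.11%, and its 8-letter part GCATGCGC, which lies inside it, in 3 members (5.08%), against 3.05% and 5.50%. These are matches of letters, which show neither binding nor use of a site. Some CTCTTTC matches lay well before the start or on the opposite strand, as in Rpl38, and mark no pyrimidine start.

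Per length of transcript, most members lay close together. The median member stood at 429 CPM per kilobase in PAX4 KO denervated, 458 in WT denervated and 245 in WT innervated muscle, and 59, 60 and 60 of the 77 members lay within 2-fold of the median of their group in that order. The stalk genes Rplp1 and Rplp0, whose products form the flexible arm that recruits translation factors, were highest. Rplp1 averaged 1325 ± 188 CPM per kilobase in PAX4 KO denervated, 1337 ± 273 in WT denervated and 764 ± 198 in WT innervated muscle (SD, n = 3 each). Rplp0 averaged 1098 ± 46.1, 1125 ± 301 and 599.6 ± 120 in the same order, so the SD ranges of these neighbours touched in each group. At the bottom, Rps10, a protein of the 40S head, averaged 1.60, 1.20 and 1.01 CPM per kilobase in PAX4 KO denervated, WT denervated and WT innervated muscle. Rpl13a averaged 8.09, 8.47 and 4.32, Rpl24 averaged 19.5, 25.1 and 15.2, and Rpl7l1 averaged 16.9, 18.8 and 17.6 in that order. How reads shared with near-identical copies were counted is not given in the sources used here. The table holds 298 pseudogene names of this family, taken as Rpl or Rps names with the suffix -ps. Of these 109 had a count, and together they took 0.000207% to 0.000343% of the counts of a library. Pseudogenes under other names were not counted, so the share of all such copies is not known. The level of any 1 member against the others is therefore uncertain, while the same gene can be compared between groups.

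The summed share of the ribosomal protein genes was 3.14%, 3.74% and 3.31% of all counts in PAX4 KO denervated libraries 1 to 3, 2.83%, 3.15% and 3.68% in WT denervated libraries and 1.38%, 1.81% and 1.20% in WT innervated libraries. All 6 denervated libraries lay above all 3 innervated ones, and the ranges of the PAX4 KO and WT denervated libraries overlapped. The group means were 3.40% ± 0.308, 3.22% ± 0.427 and 1.46% ± 0.315 (SD, n = 3 each) for PAX4 KO denervated, WT denervated and WT innervated muscle. WT innervated library 2, which had the highest level of denervation markers in its group, also had the highest share there, and WT denervated library 1 was lowest in its group in both. Messages of the mitochondrial genome took 14.5% to 19.7% of counts in PAX4 KO denervated, 18.4% to 23.4% in WT denervated and 28.7% to 29.5% in WT innervated libraries. Of the counts left without them, the members took 3.92% to 4.38% in PAX4 KO denervated, 3.59% to 4.51% in WT denervated and 1.69% to 2.57% in WT innervated libraries. The small and large subunit genes kept 1 proportion: the small subunit sum was 0.714, 0.708 and 0.703 of the large subunit sum (stalk included) in PAX4 KO denervated, WT denervated and WT innervated muscle. In the second set, the share was 2.93%, 2.86% and 3.03% in double KD libraries 1 to 3, 3.07%, 3.01% and 3.12% in NRF1 KD libraries and 3.00% and 2.70% in WT con libraries 2 and 3. The double KD libraries overlapped with both other groups, and the NRF1 KD libraries lay just above the WT con ones. Shares of the 2 sets come from tables made separately and are not compared.

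**Figure D1:**
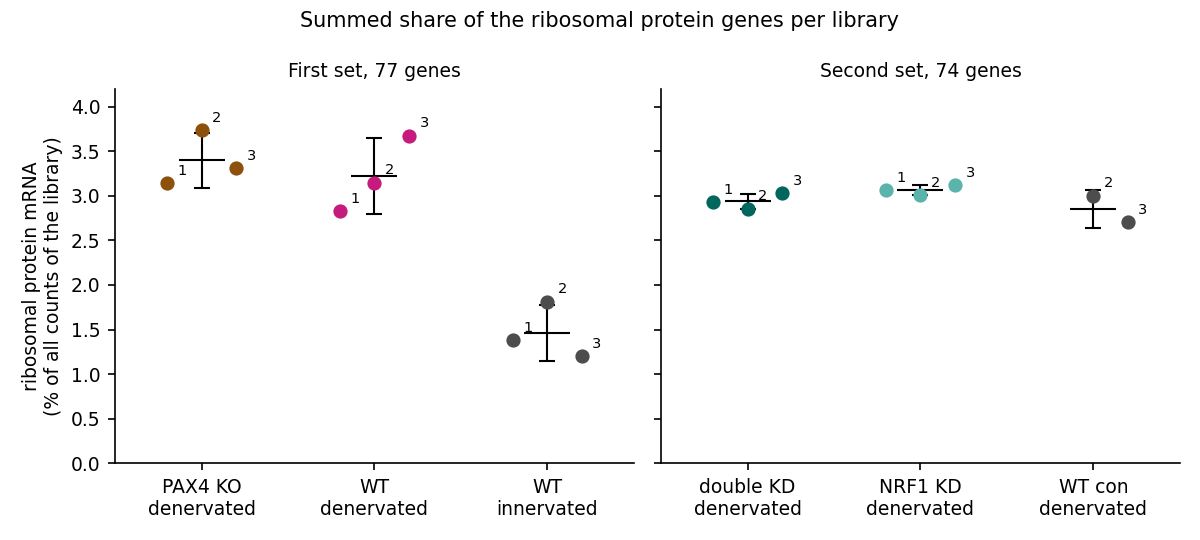
Summed share of the ribosomal protein genes in each library, in percent of counts, by group, with the group mean and SD as bars. In the first set the PAX4 KO and WT denervated libraries lie at 2.83% to 3.74% and the WT innervated ones at 1.20% to 1.81%, and in the second set all libraries lie at 2.70% to 3.12%.

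Ribosomal protein mRNAs rose together after denervation. With edgeR's quasi-likelihood test across all 16146 genes, 72 of the 77 were higher in WT denervated than in WT innervated muscle at an adjusted p under 0.05 and 0 were lower, where 16.5% of all genes tested were called higher and 15.8% lower. The median log2 fold change of the members was 0.84 (1.79-fold), against 0.02 over all genes, and all 77 had a positive value, with a range of 0.09 to 1.35. The subunits moved alike: 28 of 30 small subunit genes rose (median 0.84), 41 of 44 large subunit genes (median 0.84) and all 3 stalk genes (median 0.91). For 71 members all 3 denervated libraries lay above all 3 innervated ones, which held for 23.9% of all genes. Only 10 members differed by 2-fold or more, so the rise was broad and moderate. Normalised by library totals alone, with no scaling for composition, the median of all genes was itself 0.33 and that of the members 1.15, and the members stood 0.82 above all genes with either scaling. Without WT innervated library 2 and WT denervated library 1, 74 members were called and the median was 1.14. These libraries had the highest and the lowest summed share of their groups, so leaving them out was bound to widen the difference and is no check of it. Without WT innervated library 3 alone the median was 0.71.

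**Figure D2:**
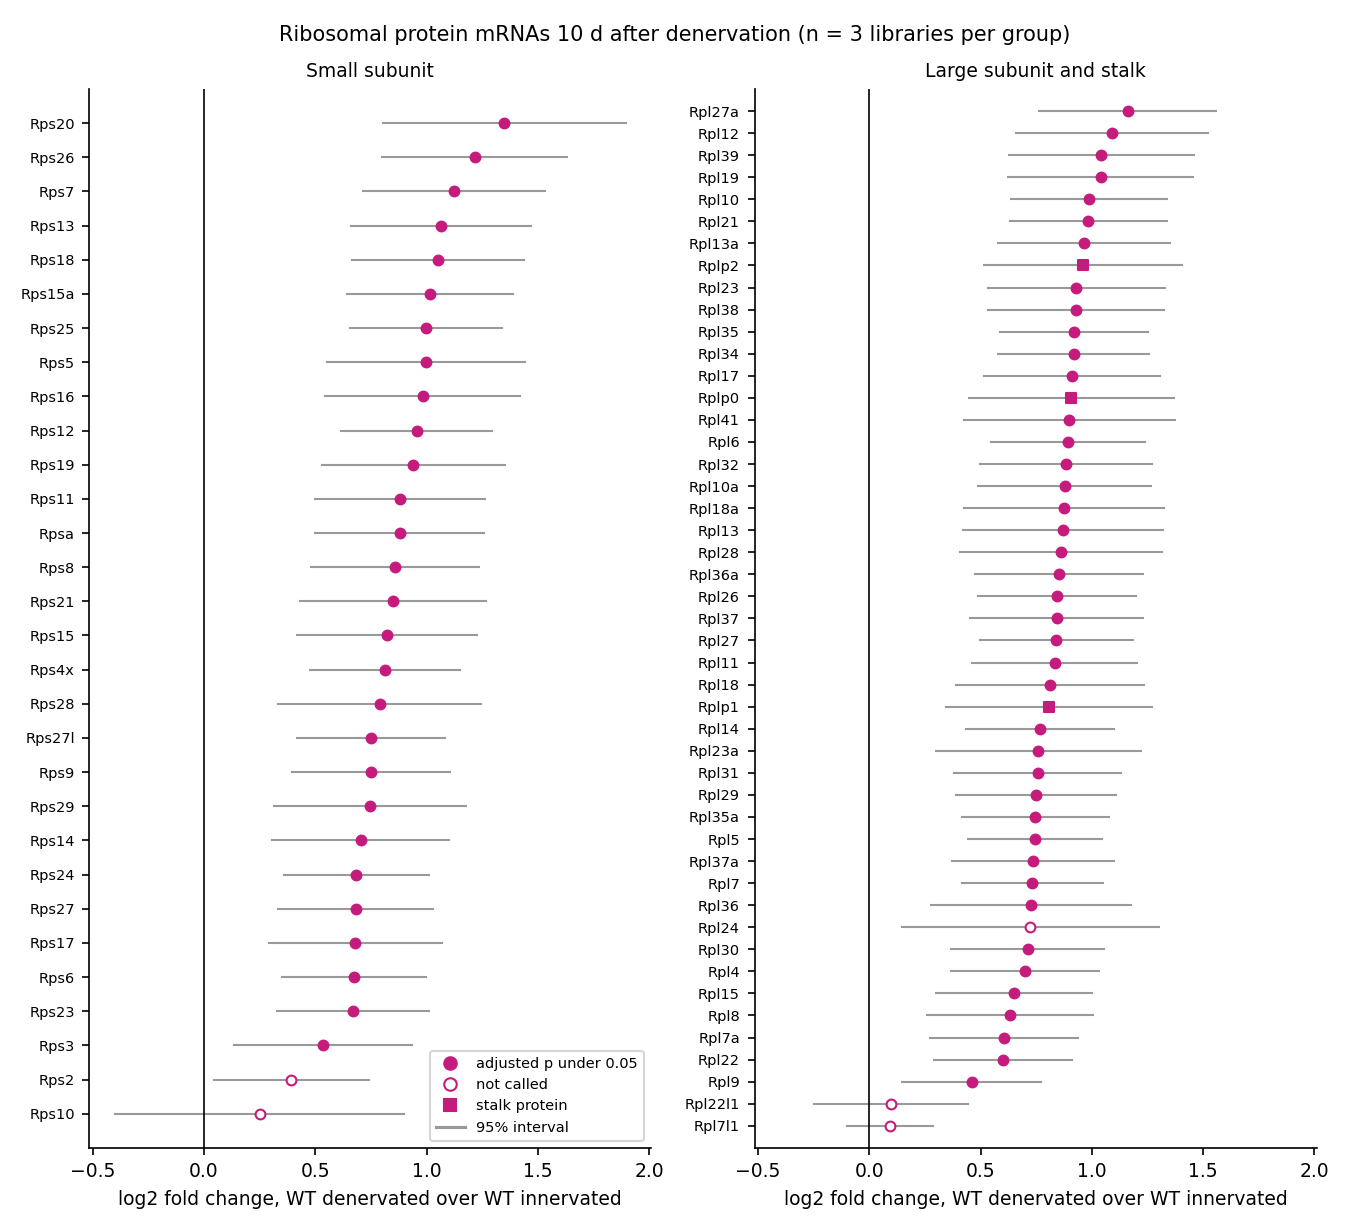
Log2 fold change of each of the 77 ribosomal protein genes in WT denervated against WT innervated muscle, with 95% confidence intervals, by subunit. The values run from 0.09 to 1.35, and the 5 genes that were not called (Rpl7l1, Rpl22l1, Rps10, Rps2 and Rpl24) include the lowest 4.

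Among small subunit genes, Rps20, a protein of the 40S head (chr4:3831334-3835665, the whole gene, GRCm38), had the highest fold change of all members. It stood at 569, 629 and 698 CPM in WT denervated libraries 1 to 3 and at 225, 355 and 164 CPM in WT innervated libraries, with no overlap between the groups. Its log2 fold change was 1.35 ± 0.25 (SE; adjusted p = 0.00275, edgeR). Rps26 (chr10:128624534-128626747), which lines the mRNA exit channel and whose promoter is shown above, stood at 314, 339 and 420 CPM in WT denervated and 134, 201 and 126 CPM in WT innervated libraries, a log2 fold change of 1.22 ± 0.19 (adjusted p = 0.00115, edgeR). Again the lowest denervated library lay above the highest innervated one. Rps7, which is also known to bind the p53 regulator Mdm2, stood at 331, 435.5 and 459 CPM in WT denervated and 177, 238 and 148 CPM in WT innervated libraries (1.12 ± 0.18, adjusted p = 0.00161, edgeR). Rps13 completed the 4 highest of this subunit, with a log2 fold change of 1.06. Rps6, the substrate of S6 kinase, rose less than most: 451, 569 and 592 CPM in WT denervated against 329, 381.5 and 299 CPM in WT innervated libraries, a log2 fold change of 0.67 ± 0.15 (adjusted p = 0.00624, edgeR). Rpsa, which is also a laminin receptor, stood at 841, 974 and 1153 CPM in WT denervated and 485, 659 and 469 CPM in WT innervated libraries (0.88 ± 0.17, adjusted p = 0.00383, edgeR). Rps19, the gene most often mutated in human Diamond-Blackfan anaemia, rose with 0.94 ± 0.19 on the log2 scale (adjusted p = 0.00406, edgeR), with 201, 258 and 282 CPM in WT denervated and 121, 164 and 101.0 CPM in WT innervated libraries. In each of these genes WT innervated library 2 was the highest innervated library and WT denervated library 1 the lowest denervated one.

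Among large subunit genes, Rpl27a (chr7:109519147-109522367) had the highest fold change. It stood at 397, 409 and 505 CPM in WT denervated and 184, 248 and 154 CPM in WT innervated libraries, a log2 fold change of 1.16 ± 0.18 (adjusted p = 0.00117, edgeR). Rpl12, at the base of the stalk, followed with 1.09 ± 0.19 (adjusted p = 0.00241, edgeR), from 361, 451 and 526.5 CPM in WT denervated and 194, 267 and 168 CPM in WT innervated libraries. Rpl39, which lines the peptide exit tunnel, and Rpl19 both had a log2 fold change of 1.04. In all 4 genes the groups did not overlap. Rpl5 and Rpl11 bind the 5S ribosomal RNA and, when free, Mdm2. Rpl5 stood at 499.9, 636 and 620.1 CPM in WT denervated and 354, 385 and 309 CPM in WT innervated libraries (0.74 ± 0.14, adjusted p = 0.00269, edgeR). Rpl11 stood at 267, 310.5 and 329 CPM in WT denervated and 169.5, 208 and 131.5 CPM in WT innervated libraries (0.83 ± 0.17, adjusted p = 0.0044, edgeR). Both lay between the quartiles of the members (0.73 and 0.93), as did Rpl26 (0.84), while Rpl23 lay at the upper quartile (0.93). Rpl23 and Rpl26 are other proteins known to bind Mdm2 or the p53 mRNA. Rpl10, which completes the 60S subunit late in its assembly, had a log2 fold change of 0.99, Rpl36a of 0.85, and Rps4x, the X-linked small subunit gene, of 0.81.

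The stalk genes rose like the rest. Rplp0 (chr5:115559467-115563727), often used as a reference gene in PCR, stood at 1157, 1461 and 1966 CPM in WT denervated and 676, 994 and 773 CPM in WT innervated libraries, a log2 fold change of 0.91 ± 0.21 (adjusted p = 0.00841, edgeR). Rplp2 stood at 287, 271 and 374 CPM in WT denervated and 143, 210 and 125.5 CPM in WT innervated libraries (0.96 ± 0.20, adjusted p = 0.00527, edgeR). The lowest denervated library lay above the highest innervated one in both genes. Rplp1 stood at 559, 623 and 820.1 CPM in WT denervated and 341, 494 and 309 CPM in WT innervated libraries (0.81 ± 0.21, adjusted p = 0.0149, edgeR). This call was lost without WT denervated library 3 (adjusted p = 0.0598, edgeR), without WT innervated library 1 (adjusted p = 0.0681, edgeR) or without WT innervated library 3 (adjusted p = 0.0671, edgeR).

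Of the 5 members that were not called, Rpl7l1 and Rpl22l1 are paralogs and are described below. Rps10 stood at 1.16, 0.839 and 1.20 CPM in WT denervated and 0.788, 0.850 and 1.05 CPM in WT innervated libraries, and Rpl24 at 12.7, 17.2 and 21.0 CPM in WT denervated and 12.02, 12.3 and 6.49 CPM in WT innervated libraries. The log2 fold change was 0.25 for Rps10 and 0.72 for Rpl24 (adjusted p = 0.0562 for Rpl24, edgeR). Rps2, a protein near the mRNA entrance, was abundant, at 578, 682 and 762 CPM in WT denervated and 480, 611 and 449 CPM in WT innervated libraries. Its groups overlapped through WT innervated library 2, and its log2 fold change was 0.39 (adjusted p = 0.0796, edgeR). Rps2 was called without that library (0.54, adjusted p = 0.0251, edgeR) and without WT denervated library 1 (0.49, adjusted p = 0.0475, edgeR). Each was the library of its group nearest to the other group, so leaving it out widened the difference. Rps2 was not called when any other single library was left out.

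The paralogs of Rpl22 and Rpl7 stayed level while their partners rose. Rpl22l1 (chr3:28805436-28807424) stood at 34.8, 39.8 and 35.6 CPM in WT denervated and 40.6, 34.5 and 27.9 CPM in WT innervated libraries, with a log2 fold change of 0.10 ± 0.16 (adjusted p = 0.668, edgeR). Rpl22 (chr4:152325742-152334071) stood at 180, 217 and 216 CPM in WT denervated and 137, 154.5 and 112 CPM in WT innervated libraries, a log2 fold change of 0.60 ± 0.14 (adjusted p = 0.0088, edgeR). The groups overlapped for Rpl22l1 and did not for Rpl22. Rpl7l1 (chr17:46773907-46782672) stood at 46.3, 50.4 and 50.01 CPM in WT denervated and 46.7, 44.8 and 46.1 CPM in WT innervated libraries (0.09 ± 0.09, adjusted p = 0.451, edgeR). Rpl7 stood at 618, 762 and 749 CPM in WT denervated and 415, 493 and 373.5 CPM in WT innervated libraries (0.73 ± 0.14, adjusted p = 0.00385, edgeR). The interval of the difference reached 0.44 for Rpl22l1 and 0.29 for Rpl7l1, both under the median of the members. Under library totals alone, where all genes shift upward, Rpl7l1 was called with 0.41 (adjusted p = 0.00444, edgeR).

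The ratio of paralog to partner within a library does not depend on scaling. The log2 ratio of Rpl22l1 to Rpl22 averaged −2.47 ± 0.12 in WT denervated and −1.97 ± 0.20 in WT innervated muscle (SD, n = 3 each), a difference of −0.50. That of Rpl7l1 to Rpl7 averaged −3.85 ± 0.10 in WT denervated and −3.21 ± 0.23 in WT innervated muscle, a difference of −0.64. In both pairs the groups did not overlap (exact two-sided permutation p = 0.1, the smallest that 3 against 3 allows, and 0.3 after Benjamini-Hochberg adjustment over the 18 ratio comparisons). The third pair behaved otherwise. Rps27l, a p53 target in mouse and human, and Rps27 had log2 fold changes of 0.75 ± 0.15 (adjusted p = 0.00432, edgeR) and 0.68 ± 0.16 (adjusted p = 0.00865, edgeR). Their log2 ratio averaged −1.21 in WT denervated and −1.28 in WT innervated muscle, and the groups overlapped (exact two-sided permutation p = 0.3). Transcript length cancels only between groups, so the ratios give no relative amounts of the 2 proteins. The Rpl22l1 and Rpl7l1 promoters printed above hold no CTCTTTC in their stretch, and neither do those of Rpl37, Rpl37a and Rpl10a. Over the 59 members with a window, the median log2 fold change was 0.86 for the 17 that hold CTCTTTC and 0.82 for the 42 that do not, and 0.90 for the 24 with CCGGAAG and 0.81 for the 35 without it.

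**Figure D3:**
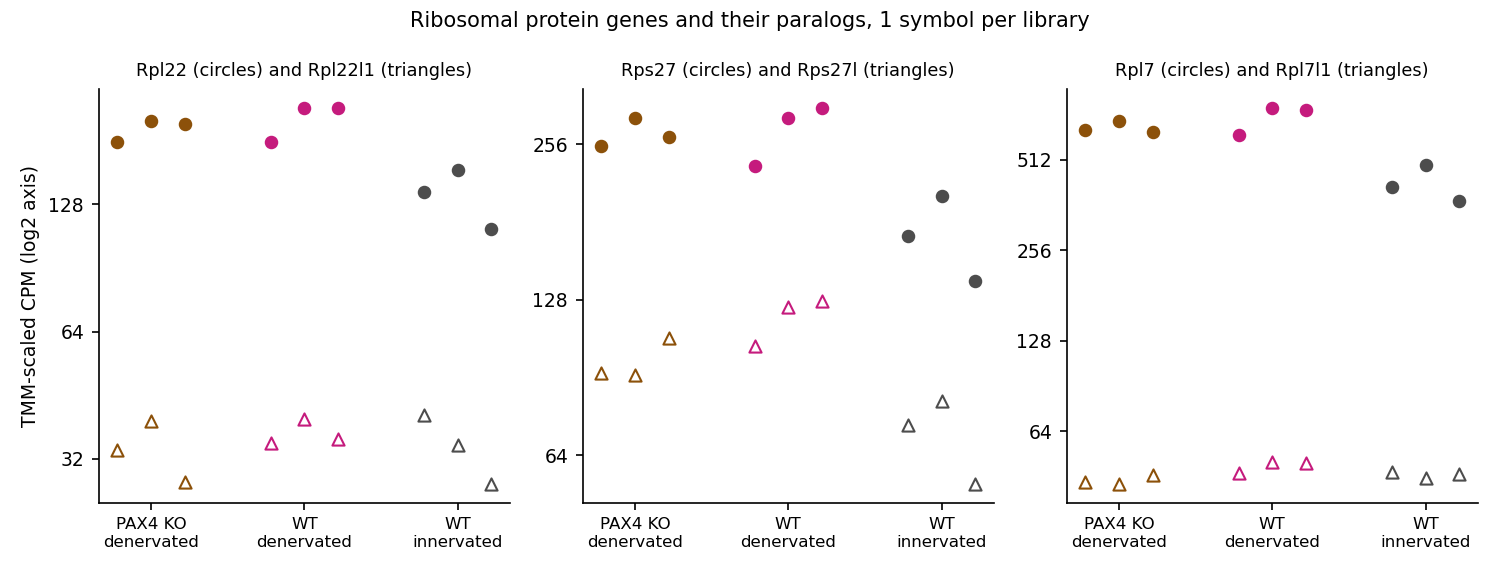
Level in CPM (log axis) of Rpl22, Rps27 and Rpl7 (circles) and of their paralogs (triangles) in each library of PAX4 KO denervated, WT denervated and WT innervated muscle. Rpl22l1 stays between 27.9 and 40.6 CPM and Rpl7l1 between 42.7 and 50.4 CPM in all 9 libraries, while Rpl22 and Rpl7 are lower in the innervated ones.

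Other genes of translation moved less uniformly, in lists chosen with earlier results of these data known. Rpl3, which has a muscle paralog and was left out by the rule, rose with 1.66 on the log2 scale (adjusted p = 0.000494, edgeR), above every member. Of 19 other genes with TOP mRNAs, 14 rose and 0 fell (median 0.51), where 16.5% of all genes tested rose and 15.8% fell. Among those that rose were Eef1b2 (1.04), Eef1g (0.89) and the nucleosome assembly gene Nap1l1 (0.64). The elongation factor Eef1a1 rose with 1.70 (adjusted p = 0.000418, edgeR), and its muscle and neuron form Eef1a2 fell by 0.69 (adjusted p = 0.00551, edgeR). Eef1a1 stood at 2280, 3079 and 3164 CPM in WT denervated and 748, 1151 and 725 CPM in WT innervated libraries. Eef1a2 stood at 730, 824 and 737 CPM in WT denervated and 1128, 1209 and 1370 CPM in WT innervated libraries, and the groups of neither gene overlapped.

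Of 31 initiation factor genes, 15 rose and 4 fell, where 16.5% of all genes tested rose and 15.8% fell. The part that fell was thus no larger than among all genes. The RNA helicase Eif4a1 rose most (1.54), while the start codon factor Eif1 fell by 0.85 and the cap-binding protein Eif4e by 0.56. Of 43 genes of ribosome biogenesis and RNA polymerase I, 22 rose and 0 fell (median 0.37), with Bop1 (1.00) and Rrp12 (0.97), factors of pre-ribosome assembly, among the highest. Of 16 genes around mTORC1, S6 kinase and La-related proteins, 3 rose (Mtor 0.88, Rps6kb2 0.78 and Sesn2 0.96) and Tsc1 fell by 0.45. The median of this list was −0.14, and its calls lay near or under the shares of all genes. In the Myc family, Myc rose with 1.53 and Mycl with 3.65, and Mxd4, an antagonist, fell by 0.37 (adjusted p = 0.0497, edgeR). Of 77 mitochondrial ribosomal protein genes tested, 7 rose and 5 fell (median −0.03), against 72 and 0 of the cytosolic ones. Under library totals alone, where 5484 of all 16146 genes (33.97%) were called higher and 1047 lower with a median of 0.33, the counts were 17 of 19 TOP genes higher, 38 of 43 biogenesis genes, 23 higher and 1 lower of the initiation genes, 8 and 0 of the mTORC1 genes and 31 and 1 of the mitochondrial ribosomal protein genes, whose median turned to 0.28. Across the 9 libraries, which fall into separate groups, the 5 other genes whose log2 level followed the median member most closely among 8772 ranked were Pfdn5, Washc3, Eef1b2, Txn1 and Rps27a, with Pearson r of 0.989 to 0.993, given as a description of those groups.

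Markers of some other cell types moved with denervation too, where 16.5% of all genes tested were called higher and 15.8% lower. Of 13 macrophage markers, 9 rose (median 1.29), and their summed level was 433 to 879 CPM in WT denervated and 118.5 to 362.5 CPM in WT innervated libraries, with none at 0. WT denervated library 1, with the lowest ribosomal protein share of its group, had the highest macrophage sum there (879 CPM, against 433 and 439 CPM in the other libraries). In WT innervated and in PAX4 KO denervated muscle the libraries ranked alike in both measures. Macrophage sums were 260, 362.5 and 118.5 CPM in WT innervated libraries 1 to 3, beside shares of 1.38%, 1.81% and 1.20%. They were 785, 1374 and 974 CPM in PAX4 KO denervated libraries 1 to 3, beside shares of 3.14%, 3.74% and 3.31%. Of the markers of other cell types, 8 of 9 endothelial, 6 of 9 Schwann, 6 of 7 smooth muscle, 1 of 8 fibroblast and 1 of 6 lymphocyte markers fell. Of the satellite cell list 3 of 7 rose and 1 fell (Myog is also among the denervation markers), and 1 of 4 neutrophil and 1 of 8 cell cycle markers rose. The fibroblast, lymphocyte, neutrophil and cell cycle lists, with 1 called gene each, cannot be told from the shares of all genes. Of 13 muscle fibre markers 3 rose and 5 fell, and all 7 denervation markers rose. Under library totals alone 3 endothelial markers and 4 smooth muscle markers fell. The part of these cells in the rise of ribosomal protein mRNAs was not tested.

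PAX4 KO muscle was compared with WT muscle, both denervated, which asks whether loss of PAX4 changes the denervated state. No ribosomal protein gene was called in either direction with edgeR (0 of 77), where 0.0186% of all genes tested were called higher and 0% lower. None had an unadjusted p under 0.05 with edgeR, and DESeq2 and limma-voom also called 0. The median log2 fold change was −0.10, and 69 of 77 values were negative. Under library totals alone the median was 0.08 and 65 values were positive, with the median of all genes at 0.17. The sign of the median thus depends on the scaling. The median of the members less that of all genes was −0.11 with TMM and −0.10 under library totals. Without WT denervated library 3 the median was −0.01 and 37 of 77 values were positive. The 95% confidence interval of the log2 fold change lay within 0.5 on either side of 0 for 48 members and within 1 for 76, which bounds but does not exclude small changes.

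The lowest value was that of Rplp2, which stood at 222, 224 and 266.5 CPM in PAX4 KO denervated libraries 1 to 3 and at 287, 271 and 374 CPM in WT denervated libraries. All 3 PAX4 KO libraries lay below the WT ones, but its log2 fold change of −0.39 did not pass the test (adjusted p = 0.432, edgeR). The other stalk genes did not share this: Rplp0 stood at 1503, 1423 and 1547 CPM in PAX4 KO and 1157, 1461 and 1966 CPM in WT denervated libraries, and Rplp1 at 588, 628 and 767 CPM in PAX4 KO and 559, 623 and 820.1 CPM in WT denervated libraries, with overlap in both. Rpl7l1 was the other member without overlap on the lower side (2 of 77, where 7.23% of all genes were so), and 0 of 77 lay apart on the higher side (9.69% of all genes). It stood at 43.2, 42.7 and 45.8 CPM in PAX4 KO and 46.3, 50.4 and 50.01 CPM in WT denervated libraries. Among small subunit genes, Rps18 (−0.35, adjusted p = 0.413) and Rps27l (−0.28, adjusted p = 0.441) were lowest and Rps10 (0.40, adjusted p = 0.558) and Rps28 (0.16) highest, none past edgeR's test. The log2 ratio of Rps27l to Rps27 averaged −1.47 ± 0.18 in PAX4 KO and −1.21 ± 0.04 in WT denervated muscle (SD, n = 3 each), without overlap (exact two-sided permutation p = 0.1, the smallest possible, adjusted 0.3). The ratios of the other 2 pairs overlapped. None of the translation lists or cell type marker lists had a called gene in this comparison, and the median of the 13 macrophage markers was 0.88, with 785 to 1374 CPM in PAX4 KO and 433 to 879 CPM in WT denervated libraries.

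Set against WT innervated muscle, PAX4 KO denervated muscle had 69 of 77 members higher and 0 lower with edgeR, where 21.8% of all genes were called higher and 18.2% lower. The median log2 fold change was 0.76. This comparison uses the same 3 innervated libraries as that of WT denervated muscle, so the 2 are not independent and their values are given side by side. Rps20 had 1.33 in PAX4 KO denervated and 1.35 in WT denervated muscle against WT innervated muscle, and Rps26 had 1.12 and 1.22. For Rpl7l1 the values were −0.06 and 0.09. By subunit, 27 of 30 small subunit genes, 39 of 44 large subunit genes and all 3 stalk genes were called in PAX4 KO denervated against WT innervated muscle. The call of Rplp2 (0.57, adjusted p = 0.0415, edgeR) was lost without any single PAX4 KO library and without WT innervated library 1 or 3 (adjusted p = 0.0624 to 0.158, edgeR). That of Rplp1 was lost without WT innervated library 1 (adjusted p = 0.0602, edgeR) or 3 (adjusted p = 0.0599, edgeR). For 72 members the groups did not overlap on the higher side, against 29% of all genes. Macrophage markers were higher for 13 of 13 and cell cycle markers for 7 of 8, and their part in this result was not tested. Of 77 mitochondrial ribosomal protein genes 0 were higher and 25 lower, while 19 of 43 ribosome biogenesis genes were higher and 0 lower.

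**Figure D4:**
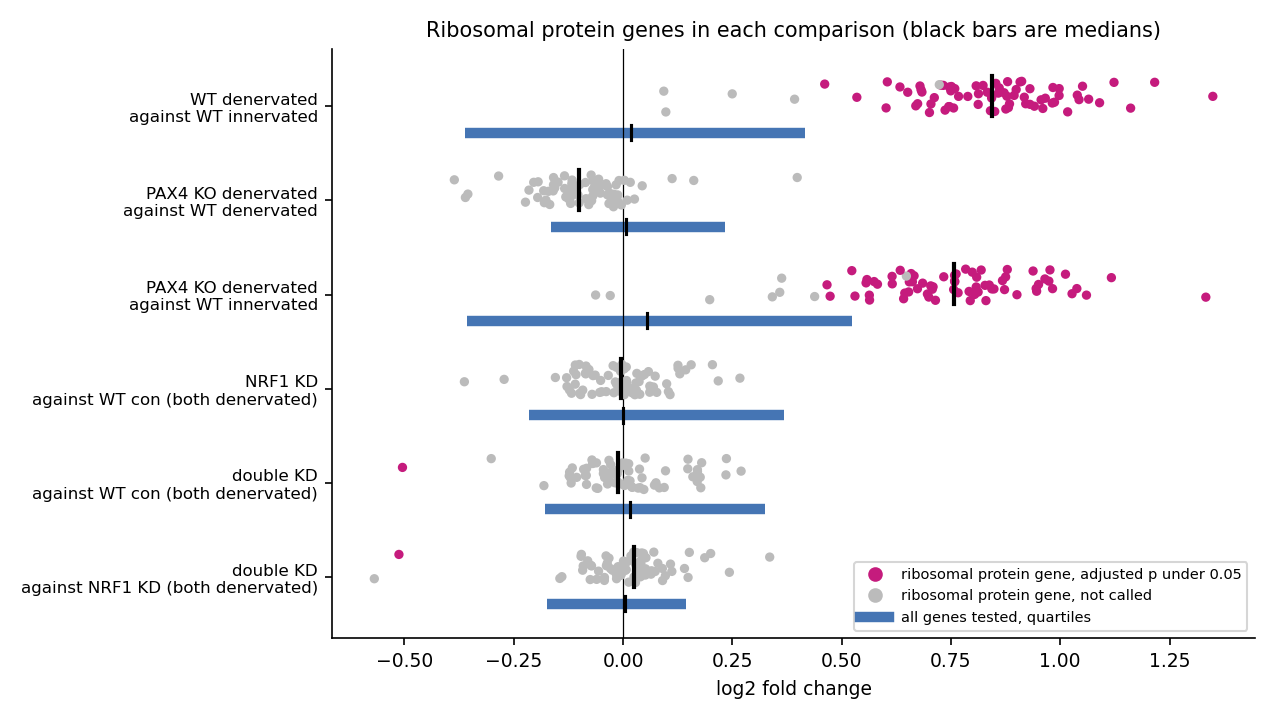
Log2 fold changes of the ribosomal protein genes in the 6 comparisons, with points as genes (coloured where the adjusted p is under 0.05), black bars as medians and blue bars as the quartiles of all genes tested. The medians are 0.84 and 0.76 in the comparisons with innervated muscle and between −0.10 and 0.02 in the 4 comparisons between denervated groups.

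In the second set, NRF1 KD muscle was set against WT con muscle, both denervated. No member was called in either direction with limma (0 of 74), where 7.58% of all 15624 genes were called higher and 3.72% lower, and 2 members had an unadjusted p under 0.05. The count test of edgeR on recovered reads also called 0, as did DESeq2. The median log2 fold change was −0.004, against 0.0007 over all genes, and the 95% confidence interval lay within 0.5 on either side of 0 for 72 members. Values ran from −0.36 to 0.27. Rps27l was lowest, with 5291, 4935 and 4228 normalised counts in NRF1 KD and 6665 and 5710 in WT con libraries. These do not overlap, as held for 4 of 74 members on the lower side (23.4% of all genes). On the higher side 4 members lay apart (22.5% of all genes). Rps27l did not pass the test (adjusted p = 0.160, limma). Rpl7l1 had −0.27 (adjusted p = 0.115, limma) and Rpl6 −0.15.

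Rplp0 stood at 28486, 29269 and 27394 normalised counts in NRF1 KD and at 24720 and 24077 in WT con libraries. Its log2 fold change was 0.22 (adjusted p = 0.197, limma), and that of Rplp1 0.20 (adjusted p = 0.324, limma). When libraries were scaled by totals without mitochondrial messages, which moved the median of all genes to 0.11, Rplp0 was called with 0.33 (adjusted p = 0.0268, limma). Neither of the 2 members with the alpha-PAL palindrome, chosen here for that motif, was called. Rpl10a was among the large subunit genes with the highest fold changes in this comparison. Rpl10a stood at 3658, 4015 and 3898 normalised counts in NRF1 KD and 3870 and 3206 in WT con libraries (0.13 ± 0.10, adjusted p = 0.440, limma). Rpl37a stood at 8358, 7469 and 7446 in NRF1 KD and 8171 and 7136 in WT con libraries (0.02 ± 0.12, adjusted p = 0.935, limma), with overlap in both genes.

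The other lists of translation genes in NRF1 KD against WT con muscle are read against the 3.72% of all genes called lower and 7.58% called higher. Of 43 biogenesis genes 8 were lower and 0 higher (median −0.26), among them Rrn3 (−0.50), which recruits RNA polymerase I, and the assembly factors Tsr1 (−0.51), Rrp12 (−0.44) and Bop1 (−0.41). Of 31 initiation genes 3 were lower (Eif2b1, Eif2b2 and Eif4a1, the last with −0.45), and 0 of 19 other TOP genes were called. Mtor was lower (−0.38) and Sesn1, a stress-induced inhibitor of mTORC1, higher (0.70), and 2 of 75 mitochondrial ribosomal protein genes were lower. With TMM scaling of the recovered reads 6 biogenesis genes and 1 initiation gene were lower (465 of all 15624 genes), and with totals without mitochondrial messages 3 and 0 (303 of all 15607 genes). The summed macrophage markers were 18463 to 37317 normalised counts in NRF1 KD and 8027 to 10636 in WT con libraries, with 11 of 12 markers called higher. Of the cell cycle and fibroblast lists 4 of 8 each were higher, while 5 of 7 denervation markers were lower, and their part in these calls was not tested.

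In double KD muscle against WT con muscle, 1 of 74 members was called, lower, and 0 were higher, where 1.7% of all genes were called lower and 2.39% higher. This was Rpl29 (chr9:106429454-106431568), a small protein on the surface of the 60S subunit that also binds heparin. It stood at 2376, 2565 and 2406 normalised counts in double KD libraries 1 to 3, at 3439, 3514 and 3524 in NRF1 KD libraries and at 3432.5 and 3513 in WT con libraries. The 3 double KD libraries lay below all 5 others, which differed little among themselves. The log2 fold change was −0.50 ± 0.08 against WT con (95% confidence interval −0.69 to −0.32; adjusted p = 0.0134, limma) and −0.51 ± 0.08 against NRF1 KD (adjusted p = 0.0347, limma). In double KD against NRF1 KD muscle, too, Rpl29 was the 1 member called, where 0.0576% of all genes were called lower and 0.0768% higher. These comparisons share the double KD libraries. The summed macrophage markers were 14475 to 22870 normalised counts in double KD, 18463 to 37317 in NRF1 KD and 8027 to 10636 in WT con libraries, and their part in the result was not tested. Over the alternatives its log2 fold change stayed between −0.54 and −0.46 against WT con, with adjusted p from 2.13e-05 to 0.0931, called in 12 of 15, and between −0.58 and −0.48 against NRF1 KD, with adjusted p from 3.18e-06 to 0.235, called in 9 of 16. The call against WT con was lost without WT con library 2 (adjusted p = 0.0931, limma), and that against NRF1 KD without double KD library 2 or 3 or NRF1 KD library 2 or 3 (adjusted p = 0.136 to 0.235, limma). In the first set, Rpl29 stood at 176, 173 and 182 CPM in PAX4 KO denervated and 159, 199 and 224 CPM in WT denervated libraries, with overlap.

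No other member of the second set passed the test in these comparisons. Medians were −0.01 in double KD against WT con and 0.02 in double KD against NRF1 KD muscle, with the interval within 0.5 on either side of 0 for 68 and 70 of 74 members. Rpl34 stood at 6240, 6871 and 8146 normalised counts in double KD, at 11457, 10097 and 9854 in NRF1 KD and at 11728 and 6422 in WT con libraries, whose 2 values spanned most of the others. In double KD against NRF1 KD muscle, 3 members lay without overlap on the higher side (8.03% of all genes did) and 4 on the lower side (8.28% of all genes), Rpl34 among the lower. Its log2 fold change was −0.57 ± 0.19 in double KD against NRF1 KD (adjusted p = 0.282, limma) and −0.30 against WT con (adjusted p = 0.457, limma). Without WT con library 3 the value against WT con was −0.74 and was called (adjusted p = 0.0422, limma), and without WT con library 2 it was 0.13. Rpl41, the shortest ribosomal protein, stood at 5933, 6634 and 7063 normalised counts in double KD, 5797, 5699 and 5546 in NRF1 KD and 6114 and 4790.5 in WT con libraries (0.20 against NRF1 KD, adjusted p = 0.521, limma). Rpl22l1 stood at 1291, 1697 and 1773 in double KD, 1379, 1172 and 1197 in NRF1 KD and 1467 and 1213 in WT con libraries (0.34 against NRF1 KD, adjusted p = 0.368, limma). The log2 ratio of Rpl22l1 to Rpl22 averaged −2.65 ± 0.20 in double KD and −2.98 ± 0.09 in NRF1 KD muscle (SD, n = 3 each), without overlap (exact two-sided permutation p = 0.1, the smallest possible, adjusted 0.3).

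**Figure D5:**
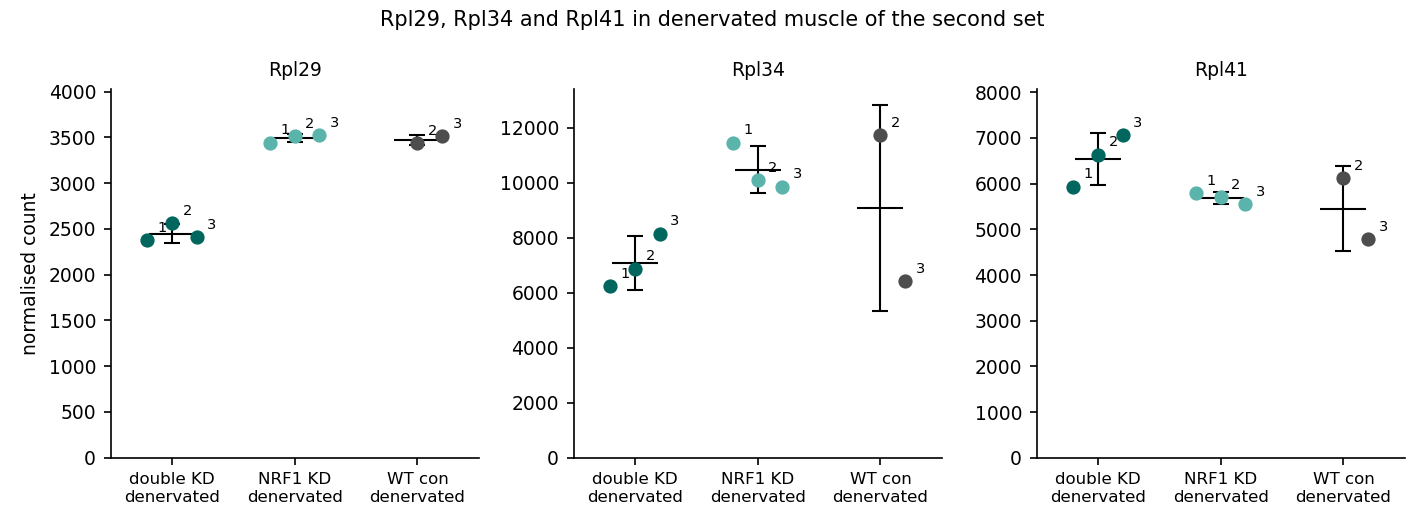
Normalised counts of Rpl29, Rpl34 and Rpl41 in each numbered library of double KD, NRF1 KD and WT con denervated muscle, with the group mean and SD as bars. Rpl29 lies at 2376 to 2565 in double KD and at 3432.5 to 3524 in the other 5 libraries, while Rpl34 spreads from 6422 to 11728 within the 2 WT con libraries.

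In the authors' deposited tables of comparisons, 68 of 75 members with an adjusted p were under 0.05 between denervated and innervated muscle, where 26.4% of 19275 genes were. For the denervated and knockdown comparison of the first set the authors' deposited table has 0 of 74 members under 0.05, where 1.05% of 15253 genes were. In the authors' deposited table of the second set, 0 of 74 members were under 0.05 for NRF1 KD (15.1% of all genes) and 1 of 74 for double KD (8.53% of all genes). That member was Rpl29, with a log2 fold change of −0.50 and an adjusted p of 4.69e-05 by DESeq2 in the authors' deposited table.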

How the data were processed

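TRIzol was used to extract RNA, of which 1 ug made a library, and reads were mapped to mouse GRCm38 (mm10), per the labels' protocols and the submitters' processing notes. Not given in the sources used here are the aligner, the counter and its handling of strand and of shared reads. The table of the first set, as deposited, holds raw counts of 9 libraries. That of the second set, also deposited by the authors, holds log2 values of 8 libraries, variance-stabilised by DESeq2 as the values show, with the mean signal of each gene (normalised counts) beside them. The authors also deposited their own log2 fold changes with a p-value and adjusted p-value for each comparison, per the file headers.

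Raw counts were tested with edgeR 4.0.16 in R 4.3.3 (quasi-likelihood test, TMM scaling, filterByExpr, all 9 libraries in 1 model, Benjamini-Hochberg over 16146 genes). CPM values are at TMM-scaled library sizes, and levels per kilobase use 1 principal transcript a gene. The deposited log2 values were turned back into normalised counts, which matched the deposited means within 3.34e-07%. Dividing out the size factors gave whole reads within 0.05 for 100% of values. These normalised counts were tested as log2(count + 1) with limma 3.58.1 (trend, Benjamini-Hochberg over 15624 genes). Fold changes of the second set are on that scale. On the recovered reads, edgeR called 1198 genes higher and 475 lower in NRF1 KD against WT con, 337 and 231 in double KD against WT con, and 11 and 9 in double KD against NRF1 KD. DESeq2 1.42.0 was a further alternative. The tests were also run on simulated counts with equal numbers of genes raised and lowered and a common spread. Those counts hold no large shift in composition, so they do not bear on the choice of scaling.

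The ribosomal protein genes, the other gene lists and the tests were chosen with earlier results of these data known. Genes are named by a rule: the stalk genes, Rpsa, the paralog pairs, Rps6, Rpl5, Rpl11, Rpl23, Rpl26 and Rps19, and the members with the highest and lowest fold changes of each subunit, of which the text gives a part. Libraries were numbered in ascending order of the numbers in the column names. Nothing in the labels says that the libraries come from separate mice, so p-values measure the spread between libraries, which may be technical. Libraries of a group differed by more than sampling noise. 6 of the 23 labelled samples (WT con 1, 2 further innervated and 3 at 14 days of denervation) were not analysed here. Alternatives covered scaling, filters, pseudocounts, other tools, leaving out libraries and a replicate block.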

Additional observations from a re-analysis of the deposited data

How the results depend on the processing

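Under library totals alone the median log2 fold change of the members was 1.15 in WT denervated and 1.23 in PAX4 KO denervated against WT innervated muscle. There Rpl22l1 and Rpl7l1 turned to 0.0575 and 0.0135 in PAX4 KO against WT denervated, and to 0.47 and 0.42 in PAX4 KO denervated against WT innervated muscle. Both were called in PAX4 KO denervated against WT innervated muscle (adjusted p = 0.0468 and 0.00236, edgeR), where 51.64% of all genes were called higher. With a minimum of 5 CPM Rpl22l1 was 0.008 in the last comparison. Without WT innervated library 2 and WT denervated library 1, a choice bound to widen the difference, the denervation median was 1.14. It was 0.71 without WT innervated library 3 alone. The median over members of scaled levels (TMM or the authors' size factors) gave a log2 ratio of 0.75 in PAX4 KO denervated against WT innervated muscle, where the summed share of library totals gave 1.21, −0.0114 in NRF1 KD against WT con (0.10 by share) and 0.0136 in double KD against NRF1 KD (−0.061 by share). These differ in scaling as well as in median against sum. With totals without mitochondrial messages, 1 member was higher in NRF1 KD than in WT con muscle.

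Leaving out 1 library at a time gave 61 to 74 members higher in WT denervated and 51 to 72 in PAX4 KO denervated than in WT innervated muscle, and 0 in PAX4 KO against WT denervated and in NRF1 KD against WT con. Rpl22l1 then ranged from −0.0368 to 0.23 in WT denervated and from −0.17 to 0.10 in PAX4 KO denervated against WT innervated muscle. Rpl34 ranged from −0.17 to 0.70 in NRF1 KD and from −0.74 to 0.13 in double KD against WT con. The count of members lower ranged from 0 to 2 in double KD against WT con and from 0 to 1 in double KD against NRF1 KD. With 1 WT con library left, it was assumed to vary like the others.

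Rpl29 was the member lost, so that 0 were lower, with only the groups compared in the model (adjusted p = 0.0522, limma, against WT con), and with a pseudocount of 0.1 (0.0559) or a mean of at least 5 CPM (0.0843) against NRF1 KD. The cause was not tested.

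The column names of WT denervated and WT innervated libraries share the numbers 127, 139 and 143, and the labels do not say what these stand for. Libraries with the same number correlated in their deviations from the group means with r of 0.22, 0.0134 and 0.25 between these groups. Different numbers gave r of −0.31 to 0.03 there. Same-number r was 0.12 and 0.41 between NRF1 KD and WT con, and −0.13 and −0.46 between double KD and WT con. The deviations of the 2 WT con libraries mirror each other, so r with WT con cannot tell whether libraries are paired. Between double KD and NRF1 KD the r was −0.46, −0.13 and −0.49. The main tests did not take the numbers as pairs, and the replicate block was an alternative. With the replicate block, 72 members were higher after denervation (median 0.86), 0 were called in NRF1 KD, and the lower count was 0 in double KD against WT con (Rpl29 adjusted p = 0.0874, limma) and 0 against NRF1 KD (0.180). No paired analysis was possible because the PAX4 KO libraries share no numbers with the others in the comparisons of PAX4 KO muscle.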
